A study of Homo sapiens with 42 samples.

Results

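The genes of sterol and fatty acid synthesis were followed in head and neck squamous carcinoma (HNSCC) cell lines given cetuximab. The set was taken by name and holds 30 genes, of which 27 were measured among the 19775 genes of the arrays. It comprises 17 enzymes of the sterol branch (15 measured), 8 genes of the fatty acid branch (7 measured), among them ACLY and ACSS2, which make the acetyl-CoA that both branches use, and 5 regulators and carriers of sterols (all 5 measured). The value of a gene is the log2 expression on the probe set (a group of short array oligos) that is annotated to that gene alone and has the highest mean over the 42 arrays. CYP51A1 and FADS1 lay only on probe sets shared with LRRD1 and with MIR1908, and FDFT1 had no probe set of its own in the annotation used, so these 3 genes were not analysed here.

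Cetuximab (CTX) is an antibody that blocks the epidermal growth factor receptor. Each of 6 lines, SCC25, SQ20B, SCC61, SCC047, SCC090 and 93VU147T, was profiled on 3 arrays after 24 h with 100 nM CTX and on 3 control arrays that are labelled as untreated, and the study's methods name PBS as the control. SCC25, SQ20B and SCC61 were HPV-negative, SCC047, SCC090 and 93VU147T were HPV-positive, and SQ20B is described as carrying extra copies of the receptor gene. SCC1 was present only with CTX and HaCaT, an immortalised keratinocyte line, only as control, on 3 arrays each, so neither entered a test. The labels give a CTX survival value for each line, highest for SCC61 with 40.16 and lowest for SCC25 with 7.61, and name no assay. The study's methods describe relative survival as colony area after longer treatment, relative to PBS control. Each line is a single established line. The replicates are not said to come from separate cultures, and the p-values below therefore rest on variation among arrays that may be technical.

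The arrays of a group lay close together, with a root mean square difference between pairs of 0.12 to 0.31 log2 units. The widest pair included SCC090 control replicate 1, and SQ20B control replicate 3 was the only array of the 6 lines with a different array file date. Squamous epithelial markers (7 measured), with keratin KRT14 or stratifin SFN the brightest, averaged 9.43 to 12.1 on single arrays. Of the 7, 2 lay below the median gene in SQ20B and 1 in SCC090 control cells. Fibroblast markers averaged 4.81 to 6.77, leukocyte markers 4.43 to 5.21, endothelial markers 4.81 to 5.32 and adipocyte markers 4.78 to 5.97.

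As background, cells make cholesterol from acetyl-CoA through mevalonate, isoprenoid units, squalene and lanosterol, and they make fatty acids from acetyl-CoA through malonyl-CoA. The SREBP transcription factors, encoded by SREBF1 and SREBF2, drive the genes of both routes. They are held in the endoplasmic reticulum by the INSIG proteins and the escort protein SCAP when sterols are plentiful, and they are carried to the Golgi and cut free when sterols are scarce. INSIG1 is itself an SREBP target, so its mRNA is a common readout of this system.

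Promoters of 26 of the 30 genes were found in RefSeq on GRCh38.p14, each as 250 bases before and 50 after a transcription start. FDFT1, SQLE, ACAT2 and FASN were not matched in the promoter table used here. The following 6 are shown because INSIG1, STARD4, SCD and MSMO1 had the largest falls among members of their sets in SCC61, FDPS rose there, and SREBF2 held the sterol element. Each is written 5′ to 3′ on the strand of the gene, and capitals mark CCAAT or its reverse complement ATTGG, the motif of NF-Y, and in SREBF2 also the sterol element.
INSIG1, GRCh38.p14 chr7:155297628-155297927, plus strand: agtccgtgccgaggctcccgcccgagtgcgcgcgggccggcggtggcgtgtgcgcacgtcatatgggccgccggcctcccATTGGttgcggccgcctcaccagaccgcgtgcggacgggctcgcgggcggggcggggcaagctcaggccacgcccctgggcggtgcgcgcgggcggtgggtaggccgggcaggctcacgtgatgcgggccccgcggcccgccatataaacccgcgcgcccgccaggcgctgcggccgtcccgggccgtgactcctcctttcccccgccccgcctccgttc
STARD4, GRCh38.p14 chr5:111512486-111512785, minus strand: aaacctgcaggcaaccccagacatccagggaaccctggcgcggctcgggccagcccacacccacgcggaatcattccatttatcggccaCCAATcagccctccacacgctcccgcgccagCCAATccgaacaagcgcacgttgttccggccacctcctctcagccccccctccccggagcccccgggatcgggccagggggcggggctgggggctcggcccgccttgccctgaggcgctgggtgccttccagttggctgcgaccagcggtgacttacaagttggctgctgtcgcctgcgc
MSMO1, GRCh38.p14 chr4:165327419-165327718, plus strand: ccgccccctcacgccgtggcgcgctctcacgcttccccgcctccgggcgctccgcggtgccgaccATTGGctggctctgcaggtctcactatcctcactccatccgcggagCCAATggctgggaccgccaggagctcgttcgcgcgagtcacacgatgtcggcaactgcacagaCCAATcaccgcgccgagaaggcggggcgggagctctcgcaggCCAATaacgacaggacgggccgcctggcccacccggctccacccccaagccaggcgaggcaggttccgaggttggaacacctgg
SCD, GRCh38.p14 chr10:100346983-100347282, plus strand: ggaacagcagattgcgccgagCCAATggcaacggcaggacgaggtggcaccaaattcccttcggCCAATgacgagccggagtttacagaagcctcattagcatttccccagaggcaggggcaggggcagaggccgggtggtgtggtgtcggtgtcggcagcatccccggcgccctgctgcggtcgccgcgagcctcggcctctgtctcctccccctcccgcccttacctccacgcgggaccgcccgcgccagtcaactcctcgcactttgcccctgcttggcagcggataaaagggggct
FDPS, GRCh38.p14 chr1:155308616-155308915, plus strand: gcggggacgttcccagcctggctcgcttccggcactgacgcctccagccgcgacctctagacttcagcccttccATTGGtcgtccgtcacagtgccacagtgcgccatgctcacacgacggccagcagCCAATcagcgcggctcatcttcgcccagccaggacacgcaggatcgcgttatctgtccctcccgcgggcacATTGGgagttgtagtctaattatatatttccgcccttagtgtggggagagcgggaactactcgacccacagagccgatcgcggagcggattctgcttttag
SREBF2, GRCh38.p14 chr22:41832855-41833154, plus strand: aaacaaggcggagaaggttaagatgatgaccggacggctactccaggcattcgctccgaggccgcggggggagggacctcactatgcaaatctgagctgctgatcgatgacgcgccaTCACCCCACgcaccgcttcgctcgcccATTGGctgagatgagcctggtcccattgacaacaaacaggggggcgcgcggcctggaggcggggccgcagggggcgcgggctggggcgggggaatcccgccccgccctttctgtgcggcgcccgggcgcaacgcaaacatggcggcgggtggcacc
CCAAT was searched on both strands and was present in the promoters of 21 of the 26 genes, which were 13 of 14 in the sterol branch, 5 of 7 in the fatty acid branch and 3 of 5 regulators and carriers. It was present in 39.7% of all 27303 genes with a promoter entry. GGGCGG, the Sp1 box, was present in 25 of 26 members and 48.3% of all genes, and CACGTG, the E-box, in 3 of 26 and 8.78%. The letters TCACNCCAC, 1 form of the sterol response element, were present in SREBF2 alone of the 26, as TCACCCCAC, against 1.39% of all genes. Other forms of the element, or copies outside the window, were not searched, so its absence from the other promoters is not shown. None of these motifs contains another, and a match in such a window is a description of its letters. INSIG1, which fell in SCC61, and FDPS, which rose there, both held CCAAT, with the copy farthest from the start beginning 170 bases before it in INSIG1 and 176 bases before it in FDPS. The promoter of SREBF1, which also fell, held none.

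In SCC61, CTX was accompanied by lower expression of most regulators and of many sterol enzymes. Of the 27 members, 18 passed the test (limma, adjusted p under 0.05), 14 of them lower and 4 higher. Across all genes 44.1% passed in the same comparison, 19.8% lower and 24.4% higher. CTX and control arrays did not overlap for 19 of the 27 members, against 53.9% of all genes. By set, 4 of 5 regulators and carriers were lower and none was higher, and 8 of 15 sterol enzymes were lower and 3 were higher. In the fatty acid branch 2 of 7 genes were lower and 1 was higher, 42.9% in all and thus near the share over all genes. The median change was -0.62 in the regulators and carriers, -0.36 in the sterol branch and -0.08 in the fatty acid branch, against -0.03 over all genes. The arrays measure whole cultures, so fewer expressing cells and less RNA per cell cannot be told apart.

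INSIG1, which retains the SREBP complex in the endoplasmic reticulum, had the largest change of the set in SCC61. It measured 7.72, 7.94 and 7.84 log2 units on the CTX arrays, against 9.74, 9.84 and 9.48 on the control arrays. All CTX arrays lay below all control arrays, by a mean of 1.85 log2 units (log2 change -1.85 ± 0.13 SE, limma adjusted p = 2.95e-13), which is 3.61-fold lower. The other probe sets of INSIG1 gave -1.81 and -2.21. INSIG2, its relative with the same role, did not pass (log2 change 0.04 ± 0.12 SE).

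STARD4, a soluble carrier that moves cholesterol between membranes, measured 7.70, 8.04 and 7.70 in SCC61 CTX cells, against 9.06, 9.17 and 8.98 in SCC61 control cells. The groups did not overlap, and STARD4 was 2.39-fold lower with CTX (log2 change -1.26 ± 0.13 SE, limma adjusted p = 1.43e-09). SREBF1 measured 7.24, 7.13 and 7.20 in SCC61 CTX cells, against 7.92, 7.85 and 7.64 in SCC61 control cells, again without overlap, a change of -0.62 ± 0.13 (limma adjusted p = 1.96e-04). Its dimmer probe set gave -0.16. SREBF2, which mainly serves the sterol branch, changed by -0.55 ± 0.07 (limma adjusted p = 1.41e-07), and its other probe sets gave -0.70 and -0.57.

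**Figure D1:**
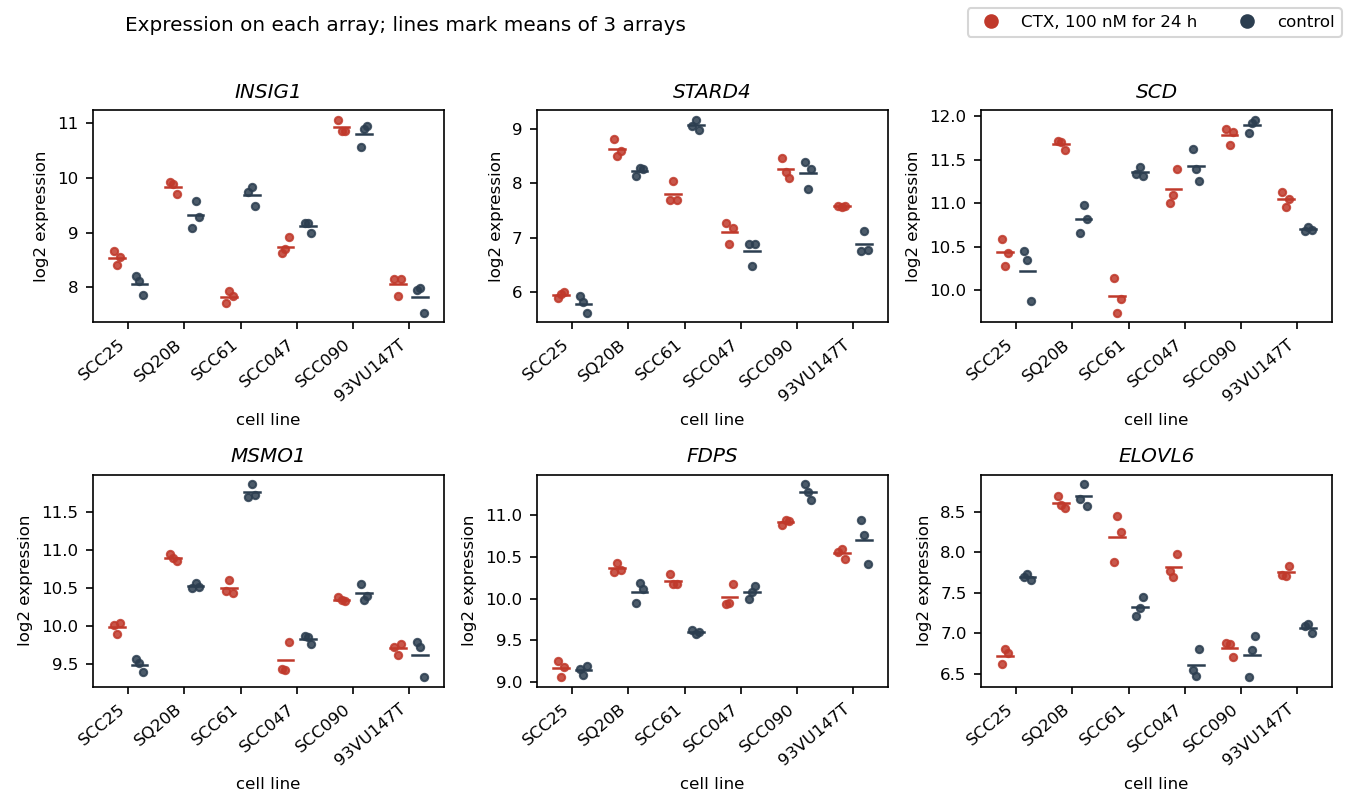
Log2 expression of 6 genes on each array (vertical axes) in the 6 cell lines (horizontal axes), with CTX arrays in red to the left of control arrays in dark blue and short lines at the mean of 3 arrays. In SCC61, INSIG1, STARD4, SCD and MSMO1 lie lower and FDPS and ELOVL6 lie higher on all 3 CTX arrays than on any control array.

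In the sterol branch, the falls in SCC61 lay at early and late steps, in 8 of 15 enzymes, while 3 rose and 4 did not pass. HMGCS1, which condenses acetyl-CoA units into HMG-CoA, changed by -0.71 ± 0.14, and MVK and MVD, which phosphorylate and decarboxylate mevalonate intermediates, changed by -0.36 ± 0.08 and -0.46 ± 0.11. Of the other probe sets of MVK, 2 were lower and 1 gave 0.10. IDI1, the isomerase of the isoprenoid unit, measured 8.71, 8.85 and 8.68 in SCC61 CTX cells, against 10.01, 9.98 and 9.83 in SCC61 control cells. The groups were apart by more than their own spread, a 2.29-fold lower level with CTX (log2 change -1.20 ± 0.09 SE, limma adjusted p = 2.99e-12). The brighter of its remaining probe sets gave -1.23, and both dim ones gave 0.38 and 0.06.

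SQLE, the squalene epoxidase that commits squalene to sterols, measured 10.34, 10.18 and 10.17 in SCC61 CTX cells, against 11.43, 11.33 and 11.19 in SCC61 control cells. MSMO1, an oxidase that removes methyl groups from lanosterol products, measured 10.46, 10.61 and 10.43 in SCC61 CTX cells, against 11.70, 11.87 and 11.73 in SCC61 control cells. Neither gene had overlapping groups, and they were 2.12-fold (SQLE, log2 change -1.09 ± 0.09 SE) and 2.40-fold (MSMO1, log2 change -1.27 ± 0.10 SE) lower with CTX. The limma adjusted p was 9.48e-12 for SQLE and 1.29e-12 for MSMO1. All 4 probe sets of SQLE were lower in SCC61. The late enzymes SC5D, a sterol desaturase, and DHCR7, the reductase of the last step, changed by -0.45 ± 0.11 and -0.91 ± 0.15 and both passed.

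FDPS, ACAT2 and NSDHL went the other way in SCC61. FDPS, which joins isoprenoid units into farnesyl diphosphate, measured 10.29, 10.17 and 10.18 in SCC61 CTX cells, against 9.62, 9.57 and 9.60 in SCC61 control cells, without overlap and 1.53-fold higher (log2 change 0.62 ± 0.09 SE, limma adjusted p = 1.11e-06). ACAT2, the thiolase at the head of the pathway, was higher by 0.52 ± 0.11. NSDHL, a dehydrogenase acting with MSMO1 on lanosterol products, was higher by 0.32 ± 0.09 on the probe set used, while its other probe set gave -0.06. LSS, the lanosterol synthase (0.07), the reductase TM7SF2 (0.09), the isomerase EBP (-0.11) and the ketoreductase HSD17B7 (-0.17) did not pass. With the mean of its probe sets LSS was -0.21 and passed (limma adjusted p = 0.0487), since its dim probe set gave -0.73. HSD17B7 has a near copy, HSD17B7P2, so its value is uncertain.

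In the fatty acid branch, SCD and ACSS2 were lower and ELOVL6 was higher in SCC61. SCD, the desaturase that makes oleate and palmitoleate, measured 10.14, 9.74 and 9.90 in SCC61 CTX cells, against 11.34, 11.42 and 11.31 in SCC61 control cells. It was 2.70-fold lower with CTX (log2 change -1.43 ± 0.12 SE, limma adjusted p = 1.61e-11), and its 4 probe sets gave -1.34 to -1.48. ACSS2, which makes acetyl-CoA from acetate, measured 8.18, 8.08 and 8.06 in SCC61 CTX cells, against 9.03, 8.75 and 8.77 in SCC61 control cells (log2 change -0.74 ± 0.09 SE). ELOVL6, which lengthens palmitate, measured 7.88, 8.45 and 8.25 in SCC61 CTX cells, against 7.21, 7.31 and 7.45 in SCC61 control cells, and was 1.83-fold higher (log2 change 0.87 ± 0.12 SE, limma adjusted p = 1.86e-07). None of these 3 had overlapping groups. The other 4 did not pass. ACLY, which makes acetyl-CoA from citrate, changed by 0.05 ± 0.07, ACACA, the acetyl-CoA carboxylase, by -0.08 ± 0.08, and FASN, the fatty acid synthase, by -0.05 ± 0.11. The desaturase FADS2 changed by -0.11 ± 0.10.

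**Figure D2:**
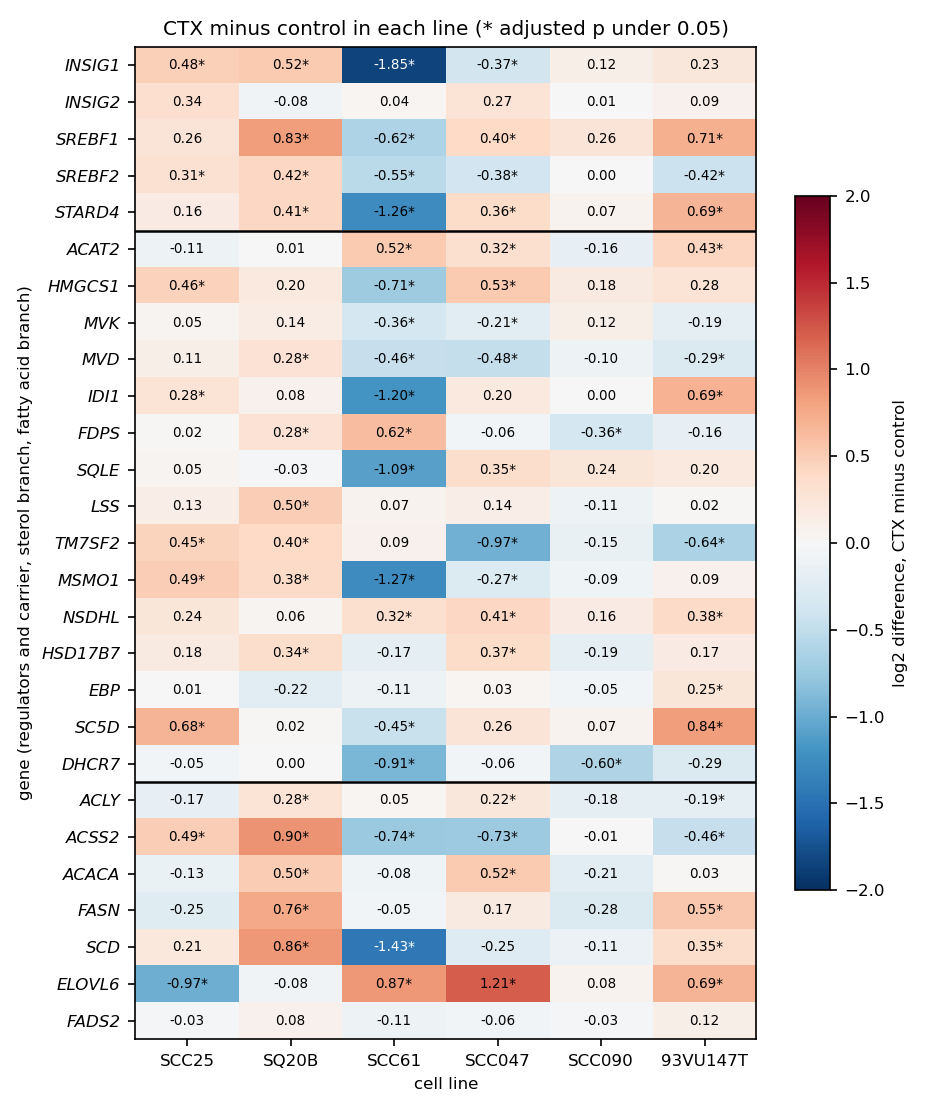
Log2 difference of CTX minus control (colour and printed value) for each of the 27 measured genes (rows, in the order regulators and carrier, sterol branch, fatty acid branch) in each cell line (columns), with an asterisk where the limma adjusted p is under 0.05. The SCC61 column holds 14 lower and 4 higher genes and the SQ20B column 15 higher and none lower.

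Other features of SCC61 were counted or measured in the same comparison, where 44.1% of all genes passed, 19.8% lower and 24.4% higher. Of 14 proliferation genes, 12 were higher with CTX and none was lower, led by the replication genes MCM3 (2.26), TYMS (2.16) and PCNA (1.83) on the log2 scale. Of 10 genes of ERK output, all 10 were lower in SCC61 and all 10 were lower in SQ20B. The fall was not particular to these lines, with 8 lower in SCC25, 5 in SCC047, 6 in SCC090 and 7 in 93VU147T, and none higher. Over all genes 7.3%, 19%, 0.885% and 18.8% were lower in those 4 lines. The difference between the 3′ and 5′ control probe sets of ACTB, a sign of RNA quality, was 0.33 in CTX and 0.27 in control cells of SCC61 (exact permutation p = 0.4, where 3 against 3 arrays can reach no less than 0.1). Among 7 adipocyte markers FABP4 was higher by 1.00 in SCC61 and LEP and PLIN1 were lower, and ADIPOQ, which defines that cell type, changed by -0.01. The mean level of that list was 5.56 to 5.80 on single CTX arrays and 5.63 to 5.79 on control arrays. Of 6 leukocyte markers, all below the median gene, 4 were lower, with list means of 4.43 to 4.66 on CTX arrays and 4.78 to 4.92 on control arrays. Of 8 fibroblast markers 3 were higher, with list means of 5.83 to 5.90 on CTX arrays and 5.74 to 5.81 on control arrays. Of 7 squamous markers 4 were higher. In all, 42.9% of adipocyte, 37.5% of fibroblast, 57.1% of squamous and 66.7% of leukocyte markers passed, against 44.1% of all genes. The part of these features in the changes of the synthesis genes was not tested.

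In SQ20B the set went up. Of the 27 members, 15 were higher and none was lower with CTX, against 33.3% of all genes that passed, 18.4% higher and 14.9% lower. The arrays did not overlap for 15 members, against 46.3% of all genes. The rise took in 4 of 5 regulators and carriers, 6 of 15 sterol enzymes and 5 of 7 fatty acid genes, with medians of 0.42, 0.14 and 0.50 and -0.03 over all genes. ACSS2 had the largest change and measured 9.04, 9.01 and 9.03 in SQ20B CTX cells, against 8.11, 7.94 and 8.34 in SQ20B control cells, without overlap (log2 change 0.90 ± 0.09 SE, limma adjusted p = 5.36e-09). SREBF1 was higher by 0.83 ± 0.13, INSIG1 by 0.52 ± 0.13, SREBF2 by 0.42 ± 0.07 and STARD4 by 0.41 ± 0.13. INSIG1 measured 9.92, 9.89 and 9.70 in SQ20B CTX cells, against 9.09, 9.57 and 9.29 in SQ20B control cells, so the lowest CTX array lay above the highest control array.

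Part of the rise in SQ20B depended on the probe set. SCD was higher by 0.86 ± 0.12 on the probe set used, and its other probe sets gave 0.02, -0.26 and -0.13. FASN was higher by 0.76 ± 0.11, and its dim probe set gave -0.43. ACACA was higher by 0.50 ± 0.08 and gave -0.02 on its other probe set, and ACLY was higher by 0.28 ± 0.07 and gave -0.23 and -0.13 on the others. The other probe sets of SREBF2 gave 0.16 and -0.16. Of the 8 members that passed in SQ20B and have several probe sets, 3 had the same sign on all of them, against 9 of 12 in SCC61. In SQ20B the 3′ to 5′ difference of ACTB was 0.56 in CTX and 0.27 in control cells, and that of GAPDH 0.13 and 0.06. Arrays did not overlap for either (exact permutation p = 0.1, the smallest that 3 against 3 arrays allow). Of 14 proliferation genes 2 were higher and 5 lower, and of 7 squamous markers 3 were higher and 2 lower. Of 8 fibroblast markers 2 were higher and 1 lower, with list means of 5.12 to 5.14 on CTX arrays and 4.81 to 4.85 on control arrays. The part of these features in these values was not tested.

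In SCC25, 5 of 15 sterol enzymes were higher and none was lower, 1 of 7 fatty acid genes was higher and 1 was lower, and 2 of 5 regulators and carriers were higher. Of the 27 members, 8 were higher and 1 was lower, against 16% of all genes that passed, 8.66% higher and 7.3% lower. The arrays did not overlap for 16 members, against 35.5% of all genes. SC5D had the largest rise and measured 9.16, 9.42 and 9.42 in SCC25 CTX cells, against 8.67, 8.69 and 8.59 in SCC25 control cells (log2 change 0.68 ± 0.11 SE, limma adjusted p = 2.35e-05). MSMO1 was higher by 0.49 ± 0.10, ACSS2 by 0.49 ± 0.09 and INSIG1 by 0.48 ± 0.13. ELOVL6 was the 1 member that was lower and measured 6.62, 6.80 and 6.75 in SCC25 CTX cells, against 7.69, 7.73 and 7.66 in SCC25 control cells, 1.96-fold lower (log2 change -0.97 ± 0.12 SE, limma adjusted p = 3.87e-07). The groups of neither SC5D nor ELOVL6 overlapped. HMGCS1 was higher by 0.46 ± 0.14 on the probe set used and changed by 0.00 on its other probe set. The proliferation genes went down in SCC25 (13 of 14 lower, 0 higher). Of 8 fibroblast markers 4 were higher, led by LUM (1.80), with list means of 6.64 to 6.77 on CTX arrays and 6.28 to 6.37 on control arrays. FABP4 was the 1 of 7 adipocyte markers that was higher (1.30), with list means of 5.35 to 5.53 on CTX arrays and 5.22 to 5.24 on control arrays, and CD14 was the 1 of 6 leukocyte markers (0.64), with list means of 4.90 to 4.96 on CTX arrays and 4.82 to 4.95 on control arrays. The 3′ to 5′ difference of ACTB was 0.32 in CTX and 0.26 in control cells of SCC25, without overlap (exact permutation p = 0.1). The part of these features was not tested.

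The HPV-positive lines SCC047 and 93VU147T had members in both directions. In SCC047, 10 were higher and 7 were lower, against 36.2% of all genes that passed, 17.3% higher and 19% lower. In 93VU147T, 10 were higher and 5 were lower, against 34.6% that passed, 15.8% higher and 18.8% lower. With each array centred on its median gene the split was 13 higher and 4 lower in SCC047, and 12 higher and 3 lower in 93VU147T. The arrays did not overlap for 16 members in SCC047 and 18 in 93VU147T, against 43.8% and 41.8% of all genes. ELOVL6 had the largest rise in SCC047, where it measured 7.77, 7.70 and 7.98 in CTX cells, against 6.55, 6.47 and 6.80 in control cells (log2 change 1.21 ± 0.12 SE, limma adjusted p = 9.64e-10). TM7SF2, a sterol reductase, had the largest fall and measured 5.45, 5.62 and 5.65 in SCC047 CTX cells, against 6.70, 6.64 and 6.28 in SCC047 control cells (log2 change -0.97 ± 0.11 SE). Both genes had groups that did not overlap in SCC047. ACACA was higher there by 0.52 ± 0.08 on the probe set used and gave -0.76 on its other one, so its direction is not settled.

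In 93VU147T, SC5D measured 9.13, 9.11 and 9.35 in CTX cells, against 8.30, 8.43 and 8.34 in control cells, the largest rise there (log2 change 0.84 ± 0.11 SE, limma adjusted p = 2.59e-07), while its other probe set gave 0.05. TM7SF2 measured 6.22, 6.56 and 6.36 in 93VU147T CTX cells, against 7.09, 7.12 and 6.85 in 93VU147T control cells (log2 change -0.64 ± 0.11 SE). Neither gene had overlapping groups. FASN was higher in 93VU147T by 0.55 and EBP by 0.25 on the probe sets used, while another probe set of each gave -0.31 and -0.15. Of the 10 members that passed and have several probe sets, 8 had the same sign on all of them, in SCC047 as in 93VU147T. SREBF1 was higher by 0.71 ± 0.13 and SREBF2 was lower by 0.42 (log2 change -0.42 ± 0.07 SE) in 93VU147T, and in SCC047 the same pair changed by 0.40 ± 0.13 and -0.38 ± 0.07. In both of these lines SREBF1 and SREBF2 thus passed in opposite directions, while both were higher in SQ20B and both were lower in SCC61. Of the 14 proliferation genes, 10 were higher and none was lower in SCC047, and 10 were higher and 2 were lower in 93VU147T. In SCC047 the 3′ to 5′ difference of ACTB was 0.40 in CTX and 0.29 in control cells and that of GAPDH 0.15 in CTX and 0.11 in control cells, both without overlap (exact permutation p = 0.1). The part of these features was not tested.

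SCC090 changed little. DHCR7 and FDPS were lower, 2 of 27 members, and none was higher, against 1.4% of all genes that passed, 0.885% lower and 0.516% higher. The arrays did not overlap for 10 members, against 15.6% of all genes. DHCR7 measured 9.34, 9.47 and 9.56 in SCC090 CTX cells, against 10.75, 9.76 and 9.65 in SCC090 control cells, and its control replicate 1 stood far above the other 2 (log2 change -0.60 ± 0.15 SE, limma adjusted p = 0.0386). Without that array neither gene passed (DHCR7 log2 change -0.25, limma adjusted p = 0.587, and FDPS -0.31, limma adjusted p = 0.34).

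The lines share no arrays, so the members that passed in each can be set side by side. Of the 27 members, 8 were lower in SCC61 and higher in SQ20B, against 5.07% of all genes. These 8 were ACSS2, INSIG1, MSMO1, MVD, SCD, SREBF1, SREBF2 and STARD4, though some other probe sets of SCD and SREBF2 were lower in SQ20B. No member was lower in both lines (3.54% of all genes). Against SCC25, 7 members were lower in SCC61 and higher in SCC25 (2.14% of all genes), and 0 were lower in both (1.47%). Against SCC047, 6 members were lower in both (6.61%), 3 were higher in both (9.42%) and 4 were lower in SCC61 and higher in SCC047 (2.18%). In SCC25 and SQ20B, 5 members passed in both, all 5 of them higher (5.89%). Over the 6 lines, 16 members passed in both directions, 9 in 1 direction only and 2, FADS2 and INSIG2, in no line, against 25.9%, 45.4% and 28.6% of all genes.

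SCC61 was singled out with earlier results of these data known, and no other line was given the test that follows. The test of SCC61 against the mean change of the other 5 lines, an interaction within the same fit, passed for 19 of the 27 members. In it 16 were lower and 3 were higher, against 37.9% of all genes that passed, 15.3% lower and 22.6% higher. By set, 4 of 5 regulators and carriers, 9 of 15 sterol enzymes and 3 of 7 fatty acid genes were lower, and FDPS, ACAT2 and ELOVL6 were higher, of which ACAT2 did not pass with each array centred on its median gene (limma adjusted p = 0.0538). INSIG1 differed most, with a change of -1.85 in SCC61 and changes of -0.37 to 0.52 in the other lines, a difference of -2.05 ± 0.14 (limma adjusted p = 3.98e-13). SCD differed by -1.64 ± 0.13, STARD4 by -1.59 ± 0.14, IDI1 by -1.45 ± 0.10 and MSMO1 by -1.39 ± 0.10. The interaction did not pass for LSS, TM7SF2, NSDHL, EBP, ACLY, FASN, FADS2 and INSIG2. Of these, LSS passed with the mean of its probe sets (-0.31), TM7SF2 passed without SCC25 (0.43) or without SQ20B (0.42), and FASN passed under 5 alternatives. ACACA was lower by this test (-0.23 ± 0.09), but on its other probe set the difference was 0.43.

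The mean change of the 6 lines was small beside these. It passed for 17 members, 10 higher and 7 lower, against 45.9% of all genes that passed, 22.8% higher and 23.1% lower, and it ran from -0.32 for DHCR7 to 0.31 for SREBF1. For INSIG1 the mean was -0.14 ± 0.05, and without SCC61 it was 0.20. For MSMO1 the mean was -0.11 and without SCC61 it was 0.12.

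**Figure D3:**
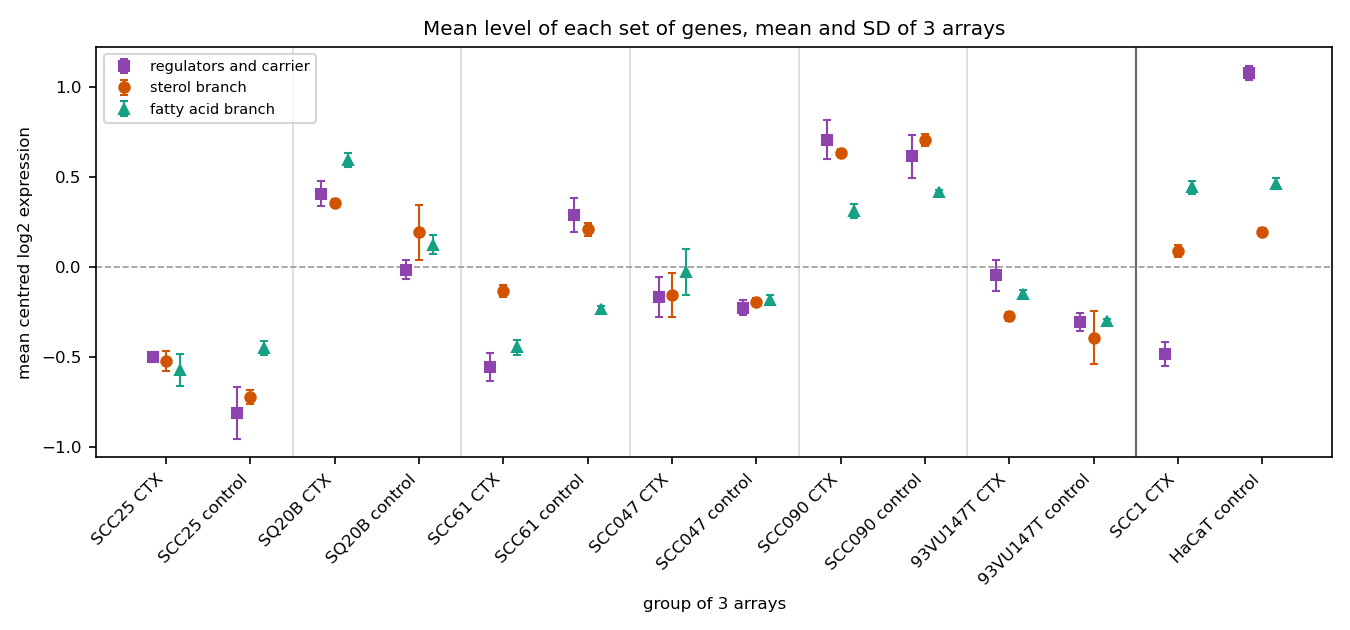
Mean log2 expression of each set of genes after each gene was centred on its mean over the 42 arrays (vertical axis), for groups of 3 arrays (horizontal axis, CTX left of control), with bars of 1 SD over arrays. In SCC61 the regulators and carrier lie at -0.56 with CTX and 0.29 in control, and the fatty acid branch at -0.45 with CTX and -0.23 in control, while in SQ20B all 3 sets lie higher with CTX.

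The mean level of each set gave the size of the branch difference per line, as a description. In SCC61 the sterol branch stood at -0.13 with CTX and 0.21 in control, and the fatty acid branch at -0.45 with CTX and -0.23 in control, relative to the mean over all arrays on the log2 scale. In SQ20B the sterol branch stood at 0.36 with CTX and 0.19 in control, and the fatty acid branch at 0.59 with CTX and 0.12 in control. In SCC25 the branches lay closer together with CTX, with the sterol branch at -0.52 with CTX and -0.72 in control and the fatty acid branch at -0.57 with CTX and -0.45 in control. In SCC090 both branches stood high with and without CTX, the sterol branch at 0.64 with CTX and 0.70 in control and the fatty acid branch at 0.31 with CTX and 0.42 in control. In SCC047 the sterol branch stood at -0.16 with CTX and -0.19 in control and the fatty acid branch at -0.03 with CTX and -0.18 in control. In 93VU147T the sterol branch stood at -0.27 with CTX and -0.39 in control and the fatty acid branch at -0.15 with CTX and -0.30 in control.

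Without CTX, SCC090 had most members above the other lines and SCC25 had most members below them. Each line's control level was tested against the mean of the other 5 lines. In SCC090, 22 of 27 members were higher and 2 were lower, against 64.7% of all genes that passed, 29.3% higher and 35.3% lower. In SCC25, 1 was higher and 23 were lower, against 47.9% that passed, 22.7% higher and 25.3% lower. In SQ20B, 16 were higher and 5 were lower (51.8% of all genes passed, 24.4% higher and 27.4% lower). In 93VU147T, 8 were higher and 16 were lower (53.1% passed, 28.6% higher and 24.5% lower). In SCC047, 6 were higher and 10 were lower (52.5% passed, 28.3% higher and 24.2% lower), and with each array centred on its median gene 4 were higher and 17 were lower. SCC090 was the highest line for 15 of the 27 members and SCC25 was the lowest for 12.

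INSIG1 showed the widest spread among the regulators after STARD4. Untreated INSIG1 measured 10.57, 10.90 and 10.94 in SCC090, 9.74, 9.84 and 9.48 in SCC61, 9.09, 9.57 and 9.29 in SQ20B, 9.18, 9.17 and 8.99 in SCC047, 8.21, 8.11 and 7.86 in SCC25 and 7.96, 7.98 and 7.54 in 93VU147T. SCC090 stood above every other line, whereas the neighbours SCC61 and SQ20B, SQ20B and SCC047, and SCC25 and 93VU147T overlapped. In SCC090 it was higher than in the others by 2.00 ± 0.10 (limma adjusted p = 8.81e-18). The 2 members that were lower in SCC090 were EBP, the isomerase late in the sterol branch, and ELOVL6 (-0.74 ± 0.09). EBP measured 8.03, 8.16 and 8.02 in SCC090, against 8.63 to 10.68 on the control arrays of the other lines (difference -1.90 ± 0.07). Its direction depended on the probe set, since the others gave -0.98, 1.26 and -0.16, while the others of ELOVL6 gave -0.81 and -0.16.

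Untreated SCC61 was mixed rather than high throughout. Of the 27 members, 14 were higher and 10 were lower than in the other lines, against 54.3% of all genes that passed, 23.8% higher and 30.5% lower, with 9 higher and 5 lower in the sterol branch and 2 higher and 4 lower in the fatty acid branch. STARD4 (1.90 ± 0.10), MSMO1 (1.79 ± 0.07), SQLE (1.46 ± 0.07), HMGCS1 (1.44 ± 0.11) and SC5D (1.17 ± 0.08) were the members most above the other lines. ACAT2 (-1.40 ± 0.09), SREBF1 (-1.09 ± 0.10), TM7SF2 (-0.99 ± 0.09) and LSS (-0.93 ± 0.08) were the members most below them. With CTX, the high members changed by -1.26 (STARD4), -1.27 (MSMO1), -1.09 (SQLE), -0.71 (HMGCS1) and -0.45 (SC5D), and the low members by 0.52 (ACAT2), -0.62 (SREBF1), 0.09 (TM7SF2) and 0.07 (LSS). The level and the change share the 3 control arrays of SCC61, so they are given side by side only.

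**Figure D4:**
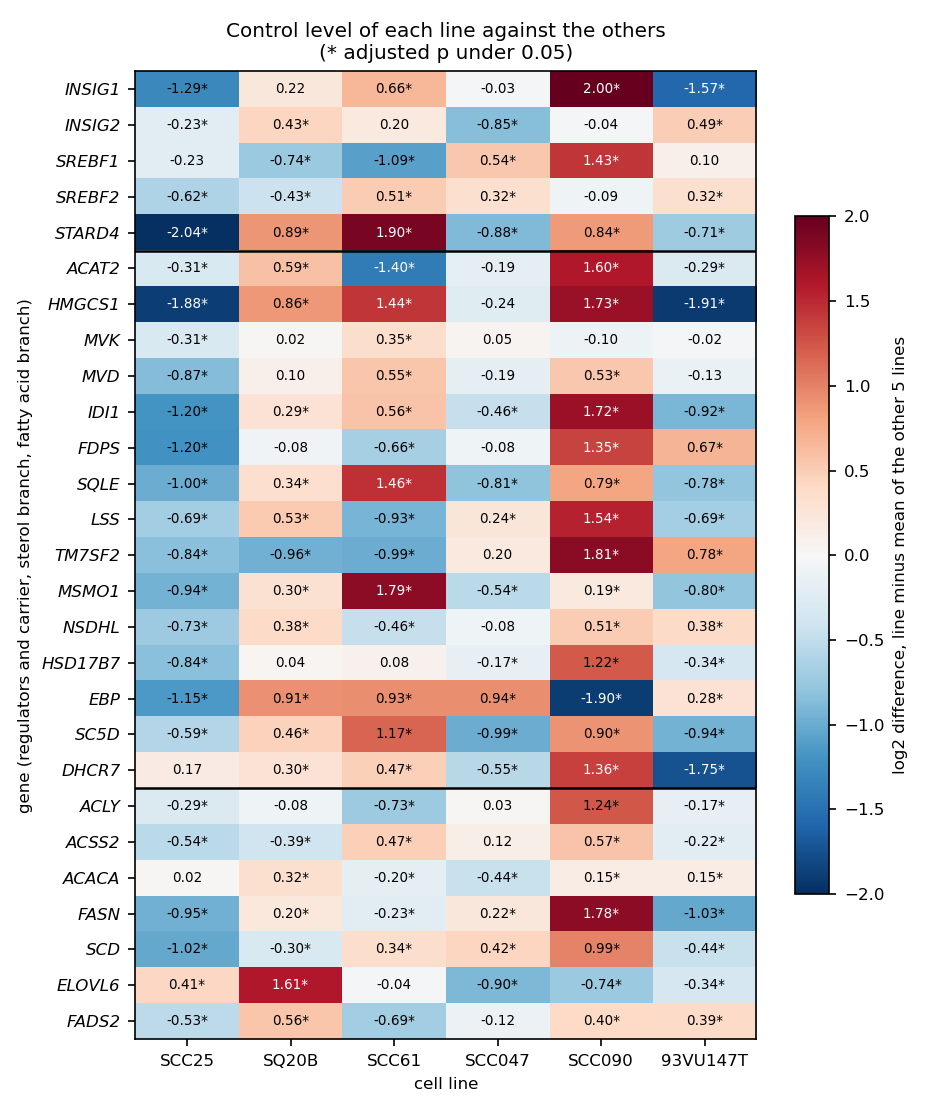
Log2 difference between the control level of a line and the mean control level of the other 5 lines (colour and printed value) for the 27 measured genes (rows) in each line (columns), with an asterisk where the limma adjusted p is under 0.05. SCC25 is lower for 23 genes and SCC090 is higher for 22, while SCC61 has 14 higher and 10 lower.

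The order of the lines was different with CTX. Among the 6 CTX groups, SCC61 was the highest line for 0 members and the lowest for 9, against 7 and 6 among the control groups. SQ20B was the highest line for 9 members with CTX and 3 in control. SCC090 was the highest for 15 in both.

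Other genes of the same pathways were counted as lists, to be read against 44.1% of all genes that passed in SCC61 and 33.3% in SQ20B. Of 13 listed genes of sterol uptake and export, 10 were measured, and in SCC61 2 were higher and 5 were lower, while in SQ20B 6 were higher and 1 was lower. ABCG1, a sterol exporter, changed by -2.23 ± 0.28 in SCC61 (limma adjusted p = 5.49e-08) and by 1.92 ± 0.28 in SQ20B. ABCA1, the exporter that loads cholesterol on lipoproteins, changed by -0.999 ± 0.15 in SCC61 and by 1.31 ± 0.15 in SQ20B. SCARB1, a receptor for high density lipoprotein, was higher in SCC61 by 1.30 ± 0.12.

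Of 7 listed genes of SREBP transport and cleavage, 5 were measured, with 3 higher and 1 lower in SCC61. The protease gene MBTPS2 was higher by 0.54 ± 0.11, the ubiquitin ligase gene RNF139 was lower (log2 change -0.49 ± 0.08 SE), and UBXN8, whose place in this list is uncertain, was higher by 1.09 ± 0.10. Of 8 other sterol and isoprenoid enzymes measured, 2 were higher and 2 were lower in SCC61, 50% in all and likewise near that share, with SOAT1, which esterifies cholesterol for storage, higher by 0.91 ± 0.11 and the phosphomevalonate kinase PMVK, which acts after MVK, higher by 0.68 ± 0.07. Of 17 other genes of fatty acid synthesis and activation, 3 were higher and 8 were lower in SCC61, and in SQ20B 10 were higher and none was lower. ACSL5, an acyl-CoA synthetase, was higher in SCC61 by 0.80 ± 0.13, and the elongase ELOVL7 was lower (log2 change -0.68 ± 0.11 SE). Of 15 genes of fatty acid oxidation, 4 were higher and 2 were lower in SCC61, 40% in all and thus near the share over all genes, with the dehydrogenase ACADM higher by 1.02 ± 0.11 and the carnitine transferase CPT2 by 0.76 ± 0.09.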

How the data were processed

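Total RNA of 42 samples was hybridised to Affymetrix hgu133plus2.0 arrays. The deposited values are log2 expression, 1 per probe set, made by the authors with fRMA 1.16.0, a background correction, quantile normalization to a frozen reference and robust probe summary. Their methods also name pSVA batch correction, and whether these values include it is not stated. Of 54675 probe sets, 41097 carried 1 gene symbol, and the brightest of each gene over all arrays was kept, which left 19775 genes. In limma 3.58.1 (R 4.3.3), 12 group means of 36 arrays were fitted, which left 24 residual degrees of freedom beside a prior of 6.86. Benjamini-Hochberg adjustment ran over all genes, with calls at 0.05. In simulated data, 100 genes were changed by 0.5 and 100 by 1 log2 unit in SCC61, and no other gene or line changed. Of these, 71% and 98% were recovered among 19775 genes, with 16 false calls. In the real data 44.1% of genes passed in SCC61, so these rates do not carry over to that test. The alternatives were other probe set rules, a filter keeping genes with a mean of at least 5 (13524 genes), median centring, quantile normalization, a replicate block, the array file date as a covariate, a trended prior, and leaving out each array or line. Members, lists and the contrast of SCC61 against the other lines were chosen with earlier results of these data known. Values per array were given for the 3 members of each set that changed most in SCC61 and for the largest rise and fall past the threshold in each other line, which in SQ20B held no fall and in SCC090 no rise. FDPS in SCC61, INSIG1 in SQ20B and the untreated values of INSIG1 and EBP were added after their values were seen. From the other lists at most 3 genes each were named, by size of change. Promoter sequences came from RefSeq on GRCh38.p14, where 26 of the 30 genes matched. Some genes of the pathway are not reported here.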

Additional observations from a re-analysis of the deposited data

Results flagged for a closer look

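The members below are listed because their CTX change in SCC61 differed from the mean change of the other 5 lines, by the limma interaction with adjusted p under 0.05. Among regulators and carriers the difference was -2.05 for INSIG1, -1.59 for STARD4, -1.11 for SREBF1 and -0.53 for SREBF2 on the log2 scale. In the sterol branch it was -1.45 for IDI1, -1.39 for MSMO1, -1.25 for SQLE, -1.03 for HMGCS1, -0.83 for SC5D, -0.71 for DHCR7, -0.37 for MVD, -0.35 for HSD17B7 and -0.34 for MVK. FDPS and ACAT2 differed the other way, by 0.67 and 0.42. In the fatty acid branch it was -1.64 for SCD, -0.78 for ACSS2, -0.23 for ACACA and 0.68 for ELOVL6. Over all genes 37.9% passed this test, for which SCC61 was chosen with earlier results of these data known.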

How the results depend on the processing

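The lower and higher counts of SCC61 (14 and 4) and of its interaction (16 and 3) stayed within 1.5 times under every alternative run. Without single arrays they spanned 14 to 15 and 4 to 4, and 14 to 16 and 3 to 4. The ranges elsewhere, higher then lower, were 5 to 8 and 1 to 1 in SCC25, 12 to 15 and 0 to 1 in SQ20B, 6 to 12 and 4 to 7 in SCC047, 0 to 0 and 0 to 2 in SCC090, 7 to 10 and 3 to 7 in 93VU147T, and 10 to 11 and 6 to 8 in the mean. For untreated levels they were 1 to 2 and 22 to 24 in SCC25, 14 to 16 and 4 to 5 in SQ20B, 14 to 14 and 8 to 10 in SCC61, 4 to 7 and 10 to 12 in SCC047, 20 to 22 and 2 to 2 in SCC090, and 7 to 8 and 13 to 16 in 93VU147T. The arrays that moved a count by over 1.5 times were SCC25 control replicate 3 and CTX replicates 1 and 3 (5 higher), SCC047 CTX replicate 3 (6 higher), SCC047 control replicate 2 and CTX replicate 1 (4 lower), SCC090 control replicate 1 and each CTX replicate (0 lower), 93VU147T control replicates 1 and 2 and CTX replicates 1 and 3 (3 lower), SQ20B control replicate 1 (1 lower) and, for untreated SCC25, SCC090 control replicate 1 (2 higher).

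Median centring shifted all genes by -0.11 in SCC61, by -0.13 in its interaction, and by -0.19, 0.14 and 0.12 in the untreated levels of SCC047, SQ20B and SCC61. It gave 4 lower in SCC047, 1 lower in SCC090, 3 lower in 93VU147T, 1 lower in SQ20B and 17 lower in untreated SCC047. The dim filter and the trended prior also gave 1 lower in SQ20B, quantile normalization 2 lower in SCC25 and 4 lower in untreated SCC090, the probe set by ratio of deviations 5 higher in SCC25, and the mean of probe sets 6 higher in the mean and 3 higher in untreated SCC047. The mean had 6 higher without SQ20B or SCC047 and 2 lower without SCC61 or SCC047. Same-numbered CTX and control arrays deviated together with r of -0.15 to 0.32, so numbers were not taken as pairs, and a replicate block gave 1 lower in SCC090.

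Directions turned under the mean of probe sets for ACLY in SQ20B (-0.0246), ACACA in SCC047 (-0.12), in the mean (-0.0242), in the SCC61 interaction (0.10) and in untreated SCC047 (0.11), FASN in the mean (-0.00513) and IDI1 in untreated SCC61 (-0.0358). Under the ratio rule they turned for ACACA in SQ20B (-0.0223), SCC047 (-0.76), the mean (-0.15), the SCC61 interaction (0.43), untreated SCC047 (0.66) and untreated SCC090 (-0.14). Without SCC61 the mean turned for MSMO1 (0.12), ACSS2 (0.0359) and INSIG1 (0.20), and without SCC047 for TM7SF2 (0.0290) and ACSS2 (0.0327). Calls were lost for NSDHL in SCC61 (0.13 with the mean of probe sets), and in the interaction for ACAT2 (0.30, median centring), MVD (-0.28, without SQ20B) and ACACA (-0.14 without SQ20B, -0.13 without SCC047), while HSD17B7 in SCC61 and FASN in the interaction passed under 5 alternatives each. Calls were also gained in SCC61 for LSS (-0.21) and FADS2 (-0.23) with the mean of probe sets and for ACACA (-0.19) with median centring. Apart from the construction of each alternative, the cause was not tested. The dim probe sets near background limit what the probe set comparison can show.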

Other observations

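SCC1 cells with CTX and HaCaT control cells had no partner arrays, so their values stand alone, without a test. In SCC1 CTX cells INSIG1 measured 8.28, 8.46 and 8.36, STARD4 6.78, 6.94 and 6.92, SCD 11.78, 11.81 and 11.78 and FASN 9.23, 9.33 and 9.46. In HaCaT control cells INSIG1 measured 11.18, 11.14 and 11.19, SCD 12.94, 12.95 and 12.97, SREBF1 10.20, 10.39 and 10.11 and SC5D 10.73 on each array. The HaCaT levels of INSIG1, SCD and SC5D lay above those on every array of SCC25, SQ20B, SCC61, SCC047, SCC090 and 93VU147T, and those of SREBF1 overlapped SCC090. Labels of HaCaT control replicates 1 and 2 share a sample number, so these 3 arrays were not counted as 3 separate samples. SCC1 and HaCaT have array file dates of their own, apart from SQ20B control replicate 3, which shares that of SCC1, so line and date cannot be told apart.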
